A study of Mus musculus with 6 samples.

Results

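Kinesin and tubulin genes were examined in polyadenylated RNA of brain tissue from adult male mice, in 3 libraries from mice labelled as high in sexual motivation and 3 from mice labelled as low. Both groups carry the genotype label C57, and the labels name no treatment, transgene or further allele in either. The series title names the medial amygdala, a brain region that relays social odours, whereas the extraction protocol abbreviates the tissue as PrL. How motivation was scored, the age beyond adult, and whether a library came from 1 animal or a pool are not stated in the labels. The p-values therefore cover only library-to-library spread, which may be technical. The genes were chosen by name from the deposited table, as symbols beginning with Kif, Klc, Tuba, Tubb or Tubg followed by a digit, with names beginning with Kifap or Kifc left out. This took 43 of 13170 genes: 25 kinesin heavy chains, 3 kinesin light chains, 14 tubulins, and Kif1bp, which encodes a protein that binds kinesin motors and is not itself a motor. Their values are FPKM, fragment counts scaled to transcript length and library size, so levels can be compared between genes. The table starts at a mean of 0.5 FPKM, and members of these families outside it, such as Kif11, Klc3 and Tubb1, were not analysed here.

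Microtubules are hollow polymers of alpha and beta tubulin dimers, and gamma tubulin nucleates them. Kinesins are motors that use ATP to walk along microtubules, most of them towards the growing plus end, and in neurons they carry vesicles, mitochondria and RNA from the cell body into axons and dendrites. A few kinesins instead take microtubules apart, build or regulate cilia, or move chromosomes in dividing cells.

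The libraries were sequenced to a similar extent, with relative depths of 0.954 to 1.33 times that of high library 1, estimated from the spacing of low FPKM values, where the most common ratio was shared by only 28 to 37 of 1428 genes. Neuronal markers other than tubulin (8 of 8 listed, among them Snap25, Syt1 and Rbfox3) summed to 695 to 795 FPKM in the high and 723 to 778 FPKM in the low libraries. Choroid plexus markers (10 of 10 listed, none at 0) were uneven, with sums of 41.4 to 111 FPKM in the high libraries against 1338, 81.8 and 4159 FPKM in low libraries 1, 2 and 3. Because tissue was profiled in bulk, fewer cells of a type and less RNA per cell cannot be told apart in any value below.

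None of the 43 genes differed between the groups after adjustment over all genes, and the log2 differences ran from -0.37 to 0.25. Of the 39 members with a mean of at least 1 FPKM, limma called 0 higher and 0 lower at an adjusted p under 0.05, as it called 0.0% of 12026 genes. At an unadjusted p under 0.05 there were 4 higher members (Kif17, Tubb3, Tubg2 and Tuba1b) and 2 lower ones (Kif9 and Kif16b), where 4.12% and 4.27% of all tested genes lay. In the same model fitted to all 13170 genes, the 4 members below that level added Kif27 and Kif6 to the lower side, giving 4 of 43 (9.3%) in each direction against 4.08% and 4.31% of all genes. Every high library lay above every low library for 6 members (14% of the 43, against 7.17% of all genes and 7.33% of tested genes) and below for 5 members (11.6%, against 7.59% of all and 7.61% of tested genes). Without low libraries 1 and 3, which leaves 1 low library and so less to overlap with, these counts were 17 (against 26.4% of all genes) and 8 (against 24% of all genes). On the log2(FPKM + 1) scale, the median difference of high from low libraries was 0.0098 for the 21 tested kinesin heavy chains and 0.085 for the 14 tubulins, against 0.00018 over all tested genes.

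**Figure D1:**
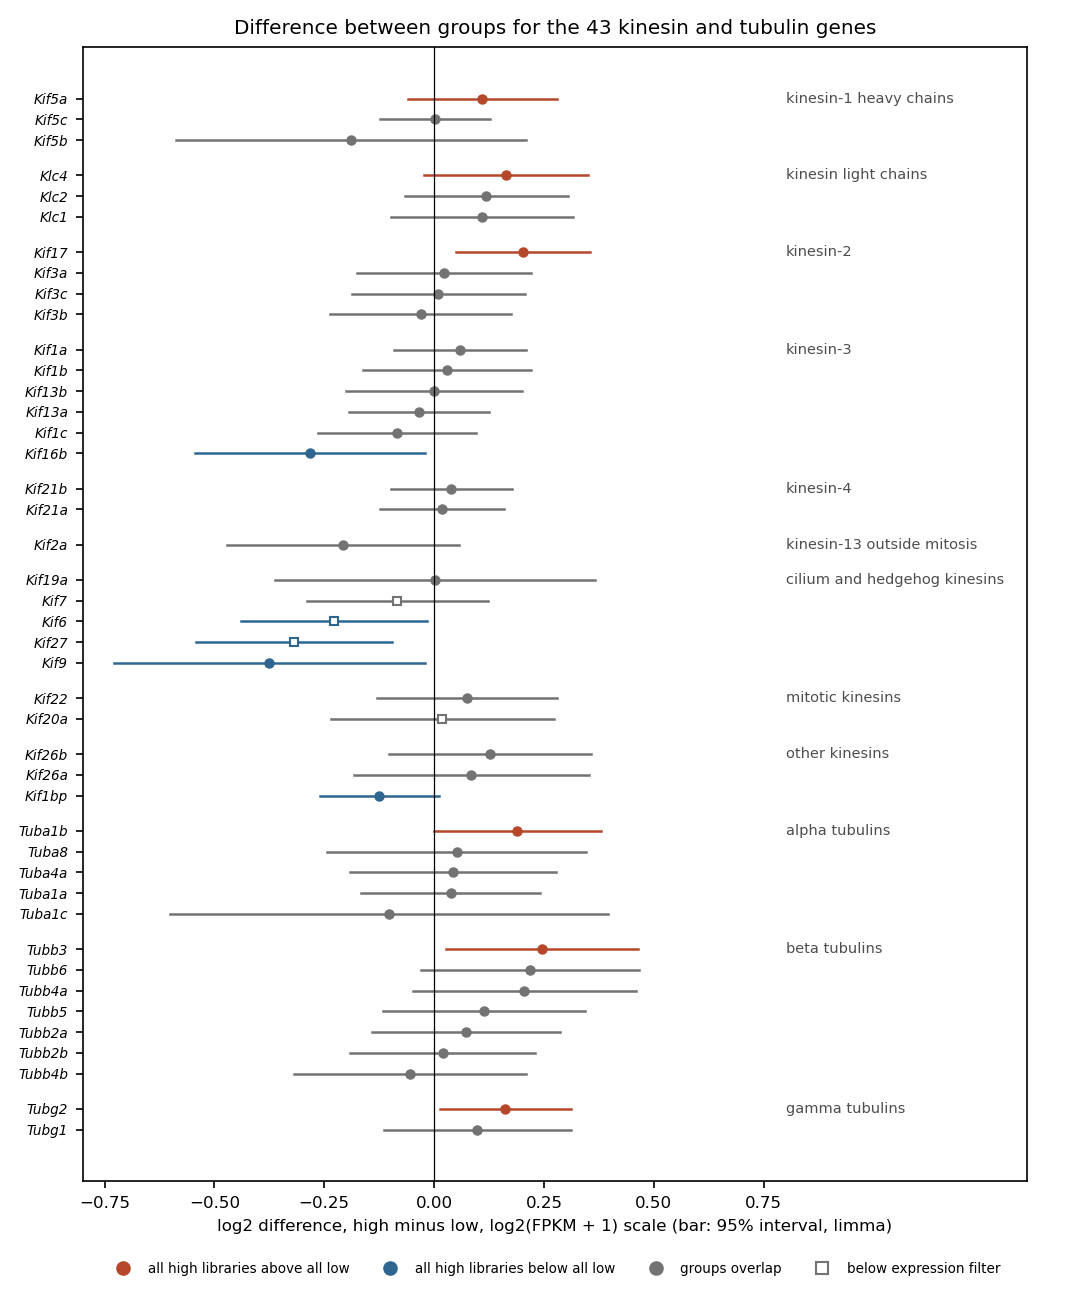
Log2 difference between the high and low groups (horizontal axis, log2(FPKM + 1) scale) for each of the 43 genes, ordered by role. Points are limma estimates and bars their 95% intervals, from -0.37 for Kif9 to 0.25 for Tubb3, and open squares mark the 4 genes below the expression filter.

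**Figure D2:**
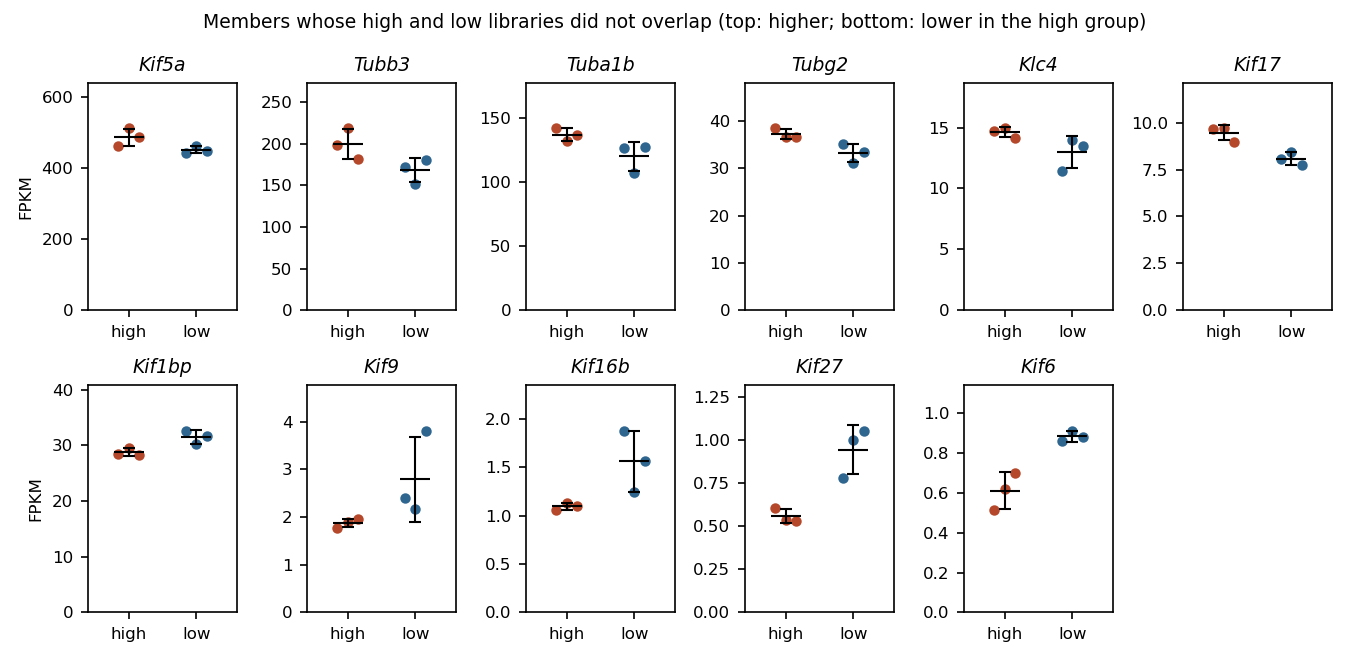
FPKM in each library (points) with the group mean and SD (bars, n = 3) for the 11 members whose groups did not overlap, on axes that start at 0. The 6 genes in the top row were higher in the high group and the 5 in the bottom row lower, without overlap.

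Kinesin-1, the main motor of fast axonal transport, is a dimer of Kif5 heavy chains with a pair of light chains that bind cargo. Kif5a, the neuronal heavy chain, was the highest of all members and ranked 26 among 13170 genes. Its FPKM was 463, 511 and 486 in high libraries 1 to 3 and 442, 461 and 448 in low libraries 1, 2 and 3. The lowest high library therefore stood just above the highest low library. The log2 difference was 0.11 (SE 0.0737; limma adjusted p = 0.688). Under quantile normalisation it was 0.0079, and it ranged from 0.074 to 0.145 as each library was left out. Kif5c, also neuronal, was the steadiest member, at 77.3 ± 0.945 FPKM (SD, n = 3) with high and 77.2 ± 0.91 with low motivation, with a 95% interval of -0.12 to 0.13 for its log2 difference.

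Kif5b, the heavy chain made in most tissues, had 11.7, 7.15 and 12.4 FPKM in the high and 11.9, 12.2 and 11.1 FPKM in the low libraries. High library 2 alone was low, and without it the log2 difference of -0.19 (SE 0.173; limma adjusted p = 0.758) became 0.04. The order of the heavy chains, Kif5a above Kif5c above Kif5b, was the same in every library and the gaps exceeded the spread.

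Among the light chains, Klc1, the main neuronal form, had 193 ± 22.3 FPKM against 179 ± 4.15 (high against low, SD, n = 3), and Klc2 had 55.9 ± 3.58 against 51.5 ± 4.21. Both overlapped between the groups. Klc4, the least abundant of the 3, had 14.8, 14.9 and 14.1 FPKM in the high and 11.5, 14 and 13.5 FPKM in the low libraries. All high libraries exceeded all low ones, by a narrow margin over low library 2 (log2 difference 0.16, SE 0.0811; limma adjusted p = 0.605). Without low library 1, the lowest, the log2 difference was 0.08. Summed heavy chain FPKM was 2.19 ± 0.185 times summed light chain FPKM with high and 2.22 ± 0.115 times with low motivation (exact 2-sided permutation p = 0.8), so the proportion of motor to cargo-binding message overlapped.

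Kinesin-2 motors serve both neuronal transport and the building of cilia. Kif17, a homodimeric motor known for carrying NMDA receptor subunits into dendrites, had 9.67, 9.69 and 8.99 FPKM in the high and 8.07, 8.43 and 7.76 FPKM in the low libraries. The groups were separate, with 9.45 ± 0.4 against 8.09 ± 0.334 FPKM (ratio 1.17; log2 difference 0.20, SE 0.0661). Its unadjusted limma p was 0.016 and its limma adjusted p 0.564, and leaving out high library 1 or low library 3 raised the unadjusted p to 0.0522 or 0.0559. The heterotrimeric motor subunits showed no such pattern. Kif3a had 35.0, 40.3 and 32.5 against 37.2, 34.4 and 34.2 FPKM, Kif3b 15.5 ± 1.87 against 15.8 ± 0.633 and Kif3c 28.3 ± 2.62 against 28.0 ± 1.94. High library 2 was the highest and high library 3 the lowest of the 6 libraries for Kif3a, Kif3b and Kif3c. An antisense gene, 1110002L01Rik, covers 35.3% of the exon bases of Kif3c. The ratio of Kif3a to its partners Kif3b and Kif3c together was 0.82 ± 0.0343 with high and 0.804 ± 0.029 with low motivation (exact 2-sided permutation p = 0.5).

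Kinesin-3 motors carry synaptic vesicle precursors, mitochondria and endosomes. Kif1a, the motor of synaptic vesicle precursors, was the most abundant heavy chain after Kif5a, at 226, 228 and 212 FPKM in the high and 218, 208 and 212 FPKM in the low libraries, which overlapped (log2 difference 0.06, 95% interval -0.09 to 0.21). Kif1b, which also carries mitochondria, had 31.8 ± 3.45 against 31.0 ± 0.943 FPKM and Kif1c 15.5 ± 0.986 against 16.5 ± 1.26 FPKM. Kif16b, an endosomal motor, was the family member with separate groups, at 1.06, 1.13 and 1.10 FPKM in the high and 1.88, 1.24 and 1.56 FPKM in the low libraries. The high libraries were close to each other while the low ones spread, with low library 2 near the high range. Its log2 difference was -0.28 (SE 0.114; limma adjusted p = 0.582), and it was -0.20 without low library 1 and -0.10 without low libraries 1 and 3, which leaves 1 low library. The kinesin-4 motors of axons and dendrites, Kif21a (23.8 ± 0.817 against 23.5 ± 1.01 FPKM) and Kif21b (18.2 ± 0.399 against 17.7 ± 0.692 FPKM), overlapped, with 95% intervals of -0.12 to 0.16 and -0.10 to 0.18.

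Kinesins tied to cilia held the largest differences of the set. Kif6 and Kif9 belong to the kinesin-9 family of motile cilia, Kif27 is a relative of the hedgehog regulator Kif7 that is linked to motile cilia, and Kif19a takes microtubules apart at the tip of the cilium. Kif9 had 1.78, 1.90 and 1.96 FPKM in the high and 2.39, 2.18 and 3.81 FPKM in the low libraries. The groups were separate, and low library 3 stood far above the rest (log2 difference -0.37, SE 0.153; limma adjusted p = 0.582). Without low library 3 the log2 difference was -0.19, and with low library 2 as the only low library it was -0.14.

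Kif27 had 0.605, 0.535 and 0.534 FPKM in the high and 0.784, 1.00 and 1.06 FPKM in the low libraries, a ratio of 0.589. It was the member with the smallest p (unfiltered log2 difference -0.32, SE 0.0968; limma adjusted p = 0.56), and its log2 difference stayed between -0.38 and -0.28 as each library was left out. Kif6 had 0.513, 0.621 and 0.70 FPKM in the high and 0.861, 0.913 and 0.879 FPKM in the low libraries, with an unfiltered log2 difference of -0.23 (SE 0.0918; limma adjusted p = 0.586). With low library 2 as the only low library, which gives no spread for that group, the unfiltered log2 differences of Kif27 and Kif6 were -0.36 and -0.25. Kif19a did not share the pattern, at 1.02, 0.854 and 1.10 FPKM in the high and 0.70, 0.827 and 1.52 FPKM in the low libraries. Kif7, which acts in the hedgehog pathway of primary cilia, had 0.733 ± 0.022 against 0.837 ± 0.0909 FPKM with overlap.

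Markers of ependymal cells, the ciliated lining of the ventricles, were ordered between the groups in the same way as Kif6, Kif9 and Kif27. Of 13 such markers 8 were in the table, none at 0, and all 8 had lower means in the high group, 7 of them with separate groups. Over all genes 7.59% were separate and lower, and 6001 of 12026 tested genes had a lower estimate. The summed level of the markers was 12.5 to 14.9 FPKM in the high and 29.8, 22.6 and 42.5 FPKM in low libraries 1, 2 and 3. Over the low libraries only Kif9 had the order of this sum. Kif6 was highest in low library 2, where the sum was lowest, and Kif27 was lowest in low library 1. The part of ependymal cells in the kinesin differences was not tested. Kif27 shares 332 exon bases with an antisense gene on the opposite strand and Kif6 shares 62 in the GENCODE annotation of GRCm38, and the labels do not say if reads were counted by strand.

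**Figure D3:**
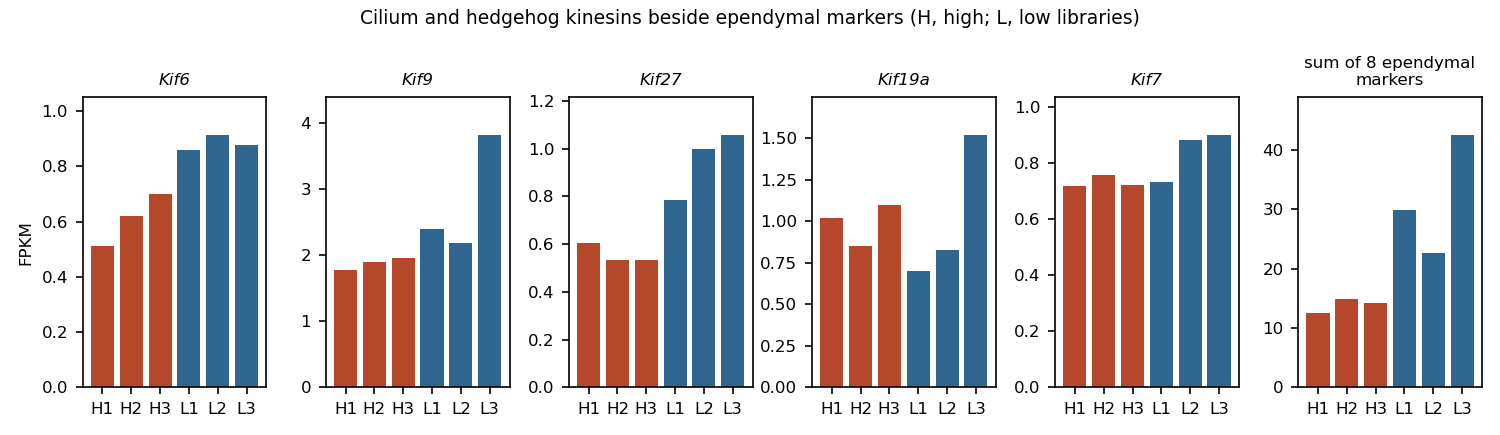
FPKM of the 5 cilium and hedgehog kinesins and the summed FPKM of 8 ependymal markers in each library (bars, axes from 0). Kif6, Kif9 and Kif27 and the marker sum were lower in all 3 high libraries, whereas Kif19a was lowest in low library 1 and highest in low library 3.

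RFX factors, which switch on cilium genes, bind a motif called the X-box. The letters GTTGCCA, part of that motif, or their reverse complement TGGCAAC were searched on both strands in 300 base windows around RefSeq gene starts (250 bases before and 50 after), where 4.38% of 32851 windows held them. Of the 32 members with a window, 3 had a match: Kif9, Kif16b and Kif2a. Members were counted by gene and the 4.38% by window, and Kif9 has overlapping windows that both match. Only exact letters were counted. The window of Kif17, whose groups were separate and higher, holds gttgcccagcaac and was left out. Its start departs from GTTGCCA only at the last letter. The rest of the X-box was not searched, so leaving Kif17 out does not mean that its window lacks an X-box. The windows of Kif6 and Kif27 did not hold GTTGCCA or TGGCAAC, which says nothing of the factor. The window of Kif6 holds gttgcta, which departs from GTTGCCA only at the letter before last. That of Kif27 (chr13:58354898-58355197) lies inside its GENCODE gene, which starts at base 58359122 on the minus strand. That of Kif17 (chr4:138262001-138262300) also lies inside its GENCODE gene, which starts at base 138250435 on the plus strand. The outer starts of these genes were therefore not searched. The windows of the matching members that had separate groups are shown with the match in capitals. For Kif9 the window shown, from its overlapping windows, lies at chr9:110476744-110477043 on the plus strand, with the match from base 224. That of Kif16b lies at chr2:142901415-142901714 on the minus strand, with the match from base 26 (RefSeq, GRCm38.p6, 5′ to 3′).
Kif9: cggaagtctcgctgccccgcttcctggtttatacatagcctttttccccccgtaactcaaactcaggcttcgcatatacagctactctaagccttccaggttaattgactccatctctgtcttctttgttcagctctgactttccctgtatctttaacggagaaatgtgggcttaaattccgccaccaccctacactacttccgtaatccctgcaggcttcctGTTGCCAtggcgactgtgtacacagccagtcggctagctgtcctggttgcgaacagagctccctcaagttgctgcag
Kif16b: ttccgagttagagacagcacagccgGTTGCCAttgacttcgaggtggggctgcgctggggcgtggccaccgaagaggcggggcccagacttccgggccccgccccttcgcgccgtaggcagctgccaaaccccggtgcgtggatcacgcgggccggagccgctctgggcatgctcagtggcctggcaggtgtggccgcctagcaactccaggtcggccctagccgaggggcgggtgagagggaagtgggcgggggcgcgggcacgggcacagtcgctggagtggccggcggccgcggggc
The forkhead motif TGTTTAC or its reverse complement GTAAACA, which does not overlap the X-box letters, was found in the window of 1 member, Tubg2, and in 3.65% of all windows.

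Kinesins with other roles overlapped between the groups. Kif2a, which takes microtubules apart and prunes axon branches, had 11.3, 8.87 and 12.5 FPKM in the high and 13.1, 12.9 and 11.9 FPKM in the low libraries (log2 difference -0.21, SE 0.114; limma adjusted p = 0.626). High library 2 was again the lowest, as for Kif5b, and without it the log2 difference was -0.08. Dimt1, on the opposite strand, covers 19.2% of its exon bases. Mitotic kinesins were scarce, with Kif22 at 2.64 ± 0.292 against 2.45 ± 0.0403 FPKM and Kif20a at 0.525 ± 0.11 against 0.506 ± 0.134 FPKM. Dividing cells were little represented, since 2 of 7 markers, Birc5 and Ccna2, were in the table, summing to 1.19 to 1.72 FPKM in the high and 1.31 to 1.82 FPKM in the low libraries. Kif26b, a kinesin of cell adhesion and migration that is thought to lack motor activity, had 3.14 ± 0.391 against 2.78 ± 0.267 FPKM. Kif1bp, whose product binds kinesin motor domains and keeps some of them off microtubules, had 28.4, 29.6 and 28.4 FPKM in the high and 32.7, 30.2 and 31.6 FPKM in the low libraries. Its groups were separate but close (log2 difference -0.13, SE 0.0588; limma adjusted p = 0.599).

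Alpha tubulins were led by Tuba1a, the form made by young and mature neurons, with 340, 309 and 308 FPKM in the high and 324, 280 and 330 FPKM in the low libraries, which overlapped. Tuba1b, a widely expressed form, had 142, 132 and 137 FPKM in the high and 126, 107 and 127 FPKM in the low libraries. Every high library exceeded every low one, and low library 2 was the lowest (log2 difference 0.19, SE 0.0821; limma adjusted p = 0.596). Without low library 2 it was 0.11. Tuba1c ranged widely, from 4.34 FPKM in low library 2 to 9.12 in low library 3, with 6.04 ± 0.956 against 6.77 ± 2.39 FPKM in the groups. Tuba4a, at 108 ± 14.9 against 104 ± 4.64 FPKM, overlapped. On the opposite strand, Stk16 covers 37.3% of the exon bases of Tuba4a.

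The alpha tubulin values depend on how reads were assigned, because the coding sequences are nearly the same. Tuba1a (chr15:98949837-98953703, minus strand) and Tuba1b (chr15:98931425-98934565, minus strand) are neighbours that shared 98.3% of aligned coding bases, with 1 identical run of 281 bases. Tuba1c (chr15:99029891-99038110, plus strand) shared 97.9% with Tuba1b and an identical run of 468 bases. Tuba4a was further off, at 84.8% to 85.2% against these 3 with runs of at most 29 bases. A gene model annotated on the same strand, Gm49450, also shares 473 exon bases with Tuba1a and 426 with Tuba1b. The coding starts show this likeness. Capitals mark the first 12 bases, whose nascent peptide is read in tubulin autoregulation, the process by which excess free tubulin destabilises tubulin mRNA (GENCODE transcripts, GRCm38, 5′ to 3′).
Tuba1a: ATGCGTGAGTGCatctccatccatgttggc
Tuba1b: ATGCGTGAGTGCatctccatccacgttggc
Tuba1c: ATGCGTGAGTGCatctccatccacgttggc
Tuba4a: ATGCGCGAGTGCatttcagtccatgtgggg

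Beta tubulins showed the largest tubulin difference in Tubb3, the neuronal isotype widely used as a neuron marker. It had 199, 218 and 182 FPKM in the high and 172, 152 and 181 FPKM in the low libraries. The groups were separate, with high library 3 and low library 3 almost equal. Means were 199.6 ± 18.5 against 168 ± 14.6 FPKM (ratio 1.19; log2 difference 0.25, SE 0.0947), with an unadjusted limma p of 0.0318 and a limma adjusted p of 0.582. The log2 difference was 0.18 without high library 2 or without low library 2. Each of the 8 other neuronal markers overlapped between the groups, with 5 higher and 3 lower and log2 differences from -0.08 to 0.39.

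Tubb4a, abundant in neurons and in myelinating oligodendrocytes, had 336, 369 and 290 FPKM in the high and 304, 257 and 301 FPKM in the low libraries, with overlap (log2 difference 0.20, SE 0.11; limma adjusted p = 0.62). Leaving out high library 2 gave 0.12, and leaving out low library 2 gave 0.13. Oligodendrocyte markers were also higher in the high group, in 8 of 8 listed, none at 0. Of these 4 were separate, where 7.17% of all genes were separate and higher. Their sums were 443, 376 and 428 FPKM in the high and 342, 369 and 379 FPKM in the low libraries. Within each group the order of these sums over the libraries differed from that of Tubb4a. The part of oligodendrocytes in the Tubb4a value was not tested. Tubb6, the scarcest beta tubulin, had 3.19, 3.86 and 2.91 against 2.45, 3.03 and 2.63 FPKM (log2 difference 0.22, and 0.13 without high library 2). Tubb2a, the most abundant tubulin, overlapped at 348 ± 38.1 against 329.5 ± 14.6 FPKM, and Tubb2a, Tuba1a and Tubb4a did not differ in level beyond their spread. The 9 members with neither separate groups nor a place among the most abundant or smallest p of their role (Kif7, Kif13a, Kif13b, Kif26a, Tuba4a, Tuba8, Tubb2b, Tubb4b and Tubb5) had log2 differences between -0.08 and 0.11 and unadjusted limma p-values of at least 0.291.

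Tubb2a (chr13:34074274-34078007, minus strand) and Tubb2b (chr13:34126748-34130466, minus strand) shared 96.5% of aligned coding bases and an identical run of 551 bases, so reads could pass between them as well. Tubb3 was more distinct, sharing 85.9% with its nearest member Tubb6 and a run of 47 bases. The first 12 coding bases of the beta forms encode the peptide read in autoregulation, and they are shown in capitals for the pair, for Tubb3 and for Tubb4a (GENCODE transcripts, GRCm38, 5′ to 3′).
Tubb2a: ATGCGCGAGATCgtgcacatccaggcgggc
Tubb2b: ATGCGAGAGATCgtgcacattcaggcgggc
Tubb3: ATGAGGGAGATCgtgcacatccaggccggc
Tubb4a: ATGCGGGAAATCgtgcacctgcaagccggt

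Gamma tubulins, which seed new microtubules in ring complexes, are encoded by neighbouring genes on chromosome 11. Tubg2 (chr11:101155907-101161787, plus strand), the form enriched in brain, had 38.4, 36.7 and 36.5 FPKM in the high and 35.1, 31.1 and 33.3 FPKM in the low libraries. The groups were separate (ratio 1.12; log2 difference 0.16, SE 0.0647), with an unadjusted limma p of 0.0367 and a limma adjusted p of 0.582. Tubg1 (chr11:101119938-101126419, plus strand), the form found in most cells, had 18.9 ± 2.04 against 17.6 ± 1.45 FPKM and overlapped. They shared 93.3% of aligned coding bases, with an identical run of 164 bases.

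Tubulin shares were compared within the alpha and the beta family. Tuba1a made up 54.0% to 57.5% of summed alpha tubulin FPKM and Tuba1b 21.7% to 25.2%. Of beta tubulin FPKM, Tubb2a held 27.8% to 29.9% and Tubb4a 24.3% to 27.8%. Tubb3 held 16.2% ± 0.34 with high and 14.8% ± 0.596 with low motivation. Of 30 shares computed within tubulin and kinesin families, 4 were separate and higher with high motivation (Tuba1b, Tubb3, Tubb4a and Kif5a). Another 5 were separate and lower (Tuba1a, Tubb4b, Kif5c, Kif13a and Kif16b). Of these, Tuba1a, Tubb4a, Tubb4b, Kif5c and Kif13a overlapped in FPKM itself. For Tuba1a the mean share was 55.8% with high and 57.2% with low motivation, and for Kif5c 13.5% and 14.3%. How often shares of other gene families separate was not computed, so these counts have no background. Shares within a family are not independent, and with 3 against 3 libraries the exact 2-sided permutation p cannot fall below 0.1. The smallest permutation p found after Benjamini-Hochberg adjustment over the 30 was 0.333. Summed alpha tubulin FPKM was 0.465 ± 0.0451 times beta tubulin FPKM with high and 0.481 ± 0.0139 times with low motivation (exact 2-sided permutation p = 0.9). The 14 tubulins, 0.106% of the genes in the table, held 0.644% to 0.815% of its FPKM.

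**Figure D4:**
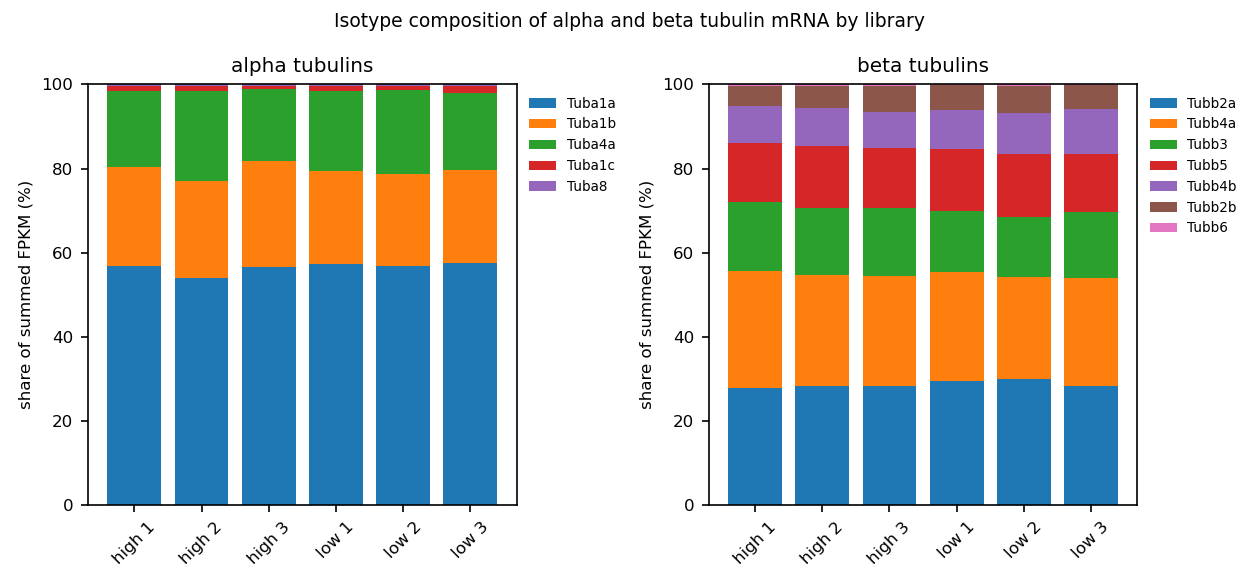
Share of summed FPKM held by each alpha tubulin (left) and each beta tubulin (right) in each library, as stacked bars that add to 100%. Tuba1a forms the largest alpha share in every library, and the beta shares of Tubb2a and Tubb4a are the largest 2 in every library.

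Libraries differed for the tubulins as a group within both conditions. Of the 14 tubulins, 8 had their highest value in high library 2 and 9 their lowest in low library 2. The median deviation of a tubulin from its mean over all libraries was 0.05, 0.19 and -0.06 in high libraries 1 to 3, on the log2(FPKM + 1) scale, and -0.0018, -0.14 and -0.01 in the low libraries. Without high library 2 the median log2 difference of the tubulins was 0.02. High library 3 lay below low libraries 1 and 3 by this measure.

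Transcript GC content, a property that sequencing libraries can favour to different degrees, tended to rise with the log2 difference. The 6 members with higher high libraries had transcripts of 53.8% to 60.1% GC and the 5 with lower high libraries 46.4% to 51.4%. Across the 39 tested members, which share the same libraries, Spearman's rho between GC content and log2 difference was 0.656, against 0.401 over 11924 tested genes with both properties. With each library corrected for GC content and transcript length, the median log2 difference of the tubulins was 0.03, that of Tubb3 was 0.19 and that of Kif17 0.17. Tuba1b was at 0.14, Tubg2, Klc4 and Kif5a at 0.11, Kif16b at -0.23 and Kif1bp at -0.14. In that corrected fit without the filter, the unadjusted limma p was 0.0325 for Tubb3, 0.0523 for Kif17, 0.0903 for Tuba1b and 0.113 for Tubg2. On the lower side it was 0.0616 for Kif16b, 0.0409 for Kif9, 0.0412 for Kif6, 0.0163 for Kif27 and 0.0269 for Kif1bp. Kif2a, with the lowest GC content of the members at 38.6%, had a corrected log2 difference of -0.03. The cilium kinesins changed little under this correction, at -0.36 for Kif9, -0.29 for Kif27 and -0.23 for Kif6.

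**Figure D5:**
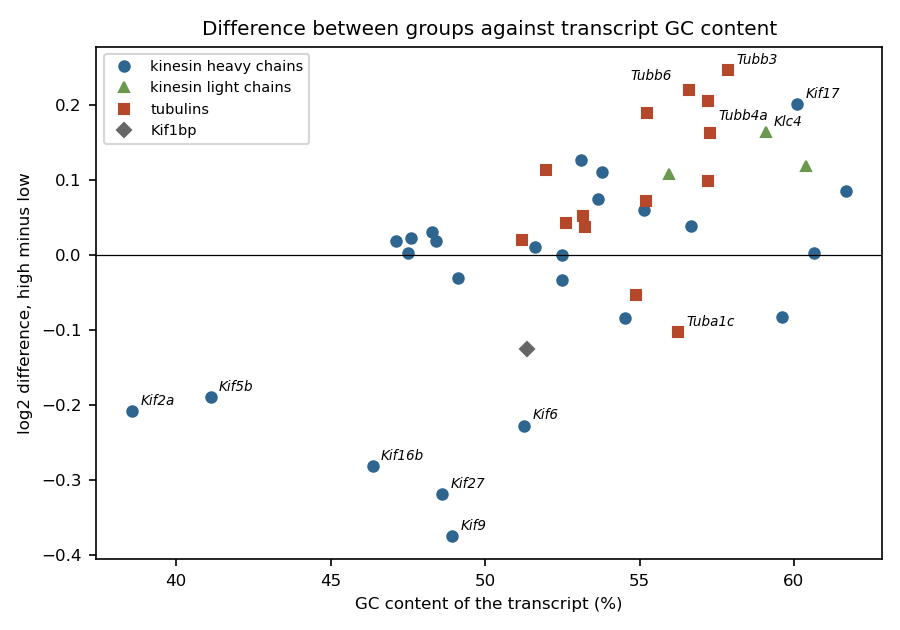
Log2 difference between the groups (vertical axis, log2(FPKM + 1) scale) against the GC content of the longest coding transcript (horizontal axis, %) for the 43 genes. Most tubulins lie above 52% GC and above 0, and the members furthest below 0 have GC content under 52%.

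Other genes of the microtubule system, taken from lists of partners, gave 0 calls by limma at an adjusted p under 0.05. Over all tested genes 50.1% were higher, the share beside which the counts below stand. Of 18 tested dynein and dynactin genes, which form the motor that walks the opposite way, 14 were higher and 4 lower, with a median log2 difference of 0.03. The dynein light chain gene Dynlt3 had the smallest p there, at 34.7, 27.4 and 34.6 against 41.1, 39.4 and 38.3 FPKM. Kinesin partners and adaptors were higher in 10 of 18 tested genes, with Arl8a, a lysosomal GTPase that recruits kinesin, at 92.0, 97.7 and 92.4 against 84.5, 80.9 and 86.9 FPKM. Microtubule-associated proteins were higher in 16 of 29, with Map9 at 10.1, 8.91 and 9.15 against 11.7, 11 and 11.2 FPKM and the tubulin-binding stathmin Stmn3 at 298, 340 and 297 against 272, 272 and 277 FPKM. Tubulin folding genes were higher in 6 of 13, tubulin modifying enzymes in 13 of 20 and genes of the gamma tubulin ring in 5 of 7. Unadjusted limma p-values under 0.05 occurred in 4 of the 105 tested genes of these lists (Dynlt3, Arl8a, Map9 and Stmn3), or 3.81%, a smaller share than the 8.39% of all tested genes.

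The authors' deposited table gives an unadjusted p under 0.05 to 5 members, or 11.6%, against 7.4% of all genes. In the authors' deposited table these are Kif6 (p = 0.00829), Kif17 (p = 0.0106), Kif27 (p = 0.0108), Kif1bp (p = 0.0292) and Tubg2 (p = 0.0353). The log2 fold changes in the authors' deposited table, which use FPKM without a pseudocount, were -0.76 for Kif27 and -0.53 for Kif6, larger than on the log2(FPKM + 1) scale.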

How the data were processed

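Gene expression was measured by RNA sequencing of poly(A) RNA in 6 libraries. The authors deposited FPKM per gene, per the file name, with 1 column per library, and a log2 fold change and an unadjusted p-value that equal, in all 13170 genes, the log2 ratio of group means and an equal-variance test of FPKM (recomputed, tolerance 1e-06). Fastp, HISAT2 and StringTie with GRCm38 are named, per the submitters' processing notes, without settings. Absolute depth is unknown. Relative depth was the most common ratio between libraries over 1428 genes under 1.5 FPKM.

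FPKM are not counts, so limma 3.58.1 in R 4.3.3 was fitted to log2(FPKM + 1) over 12026 genes with a mean of at least 1 FPKM, with a variance trend, 2-sided, and Benjamini-Hochberg adjustment over all of them at 0.05. Members below that level take their values from the same fit to all genes ("unfiltered"). The method was tested on simulated data. Single ratios and shares used exact permutation tests. Transcript properties and coding sequences came from GENCODE, to which 13055 symbols matched, with Biopython 1.88 alignments, and promoters from RefSeq, to which 32 of 43 members matched. Python 3.11.15, pandas 2.3.3 and matplotlib 3.10.9 were used. Members named are those with separate groups or an unadjusted p under 0.05, and the 2 most abundant and 2 of smallest p in each role, and for other lists the 3 of smallest p, of which those given have p under 0.05. Members and lists were chosen with earlier results of these data known. Alternatives were other pseudocounts, filters, scalings and limma settings, a replicate block, a GC and length trend (splines, 5 degrees of freedom) and left-out libraries.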

Additional observations from a re-analysis of the deposited data

How the results depend on the processing

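Under 18 alternatives limma called 0 members, with a smallest adjusted p of 0.254 over named members. Of 600 pairs of a named member and an alternative, 565 kept the direction and 35 did not, in 13 genes. The causes were not tested.

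The kinesin heavy chain median, 0.0098, was 0.054 without low libraries 1 and 3 and ranged from -0.0038 to 0.044 as each library was left out, and the tubulin median, 0.085, from 0.023 to 0.15. Members higher at an unadjusted limma p under 0.05, 4 in number (against 4.12% of tested genes), were 5 with array weights (6.65%). They were 2 without the variance trend (3.84%), 1 after GC and length correction (3.82%), and 0 to 4 as each library was left out (2.44% to 5.36%). The 2 lower members (against 4.27% of tested genes) were 4 with no filter (4.31%), 3 with array weights (6.38%) and 0 at a mean of at least 5 FPKM (4.1%). They were 0 to 2 as each library was left out (2.5% to 5.65%). Members with separate groups, 6 higher and 5 lower, were 17 and 8 without low libraries 1 and 3 (against 26.4% and 24% of all genes) and 6 to 12 and 5 to 7 as each library was left out (against 11.2% to 14.1% and 10.9% to 14.5%), and both rise by construction as libraries are removed. The lower ones were 1 at a mean of at least 5 FPKM (against 7.04% of the genes at that level), which leaves out the scarce members. With the replicate block there were 1 higher and 1 lower member at an unadjusted limma p under 0.05 (against 2.8% and 3.38% of tested genes). Same-numbered libraries did not deviate together (correlations -0.094, -0.21 and -0.16), so the numbers were not taken as pairs.

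Directions turned in these log2 differences. With array weights they were -0.00087 for Kif1b, -0.045 for Kif20a, -0.030 for Kif3a, -0.014 for Kif3c and -0.0013 for Kif5c. Without low libraries 1 and 3 they were 0.024 for Kif1c, 0.032 for Kif3b, -0.017 for Kif5c and 0.39 for Tuba1c. Quantile normalisation gave -0.028 for Kif5c and -0.0095 for Tuba1a, and GC and length correction -0.035 for Kif19a. Leaving out 1 library gave -0.11 to 0.17 for Kif19a, -0.047 to 0.10 for Kif1b, -0.061 to 0.090 for Kif3a, -0.11 to 0.056 for Kif3b and -0.042 to 0.084 for Kif3c. The same gave -0.049 to 0.079 for Kif20a, -0.0092 to 0.049 for Kif21a, -0.32 to 0.037 for Kif5b, -0.0071 to 0.011 for Kif5c, -0.037 to 0.082 for Tuba1a, -0.35 to 0.11 for Tuba1c and -0.014 to 0.14 for Tubb2a. Depth limits the scarce members Kif6, Kif7, Kif20a and Kif27 most, and absolute depth is unknown.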
